A study of Mus musculus with 8 samples.

Results

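The AP-1 family genes Fos, Fosb, Fosl1, Fosl2, Jun, Junb and Jund and their relative Atf3 were followed through the response of mouse embryonic fibroblasts to doxorubicin. The genes were chosen by name, as members of the Fos and Jun families together with Atf3, and all 8 were among the 30419 gene names of the count table. Of these 8, 7 had enough counts to be tested among 12255 genes, and Fosl1 did not. The fibroblasts came from E13.5 embryos and were used at early passage, with 300000 cells treated per sample. The cells carried either the normal Dino locus on both alleles (WT) or 2 loxP alleles of it, Dino lox/lox (mutant). Dino is a long noncoding RNA gene next to Cdkn1a, and the labels name no Cre recombinase. Each genotype received vehicle or 0.2 µg/mL doxorubicin, a topoisomerase poison that breaks DNA, for 8 h, and each of the 4 groups had n = 2 libraries, lettered A and B.

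AP-1 is a transcription factor made of a pair of basic leucine zipper (bZIP) proteins, usually a Fos and a Jun protein, which grip DNA as a dimer. Jun proteins pair with each other or with Fos proteins, while Fos proteins need a Jun partner. Several members of the family, Fos among them, are immediate early genes, whose short-lived RNA appears quickly after serum or stress. Jun is a substrate and target of the stress kinase JNK, and Fosl1 and Fosl2 encode the Fos-related proteins Fra-1 and Fra-2. Atf3 is a stress-induced bZIP factor that can pair with Jun and is known as a target of both ATF4 and p53. In fibroblasts AP-1 is known for its part in proliferation and in the expression of proteases and cytokines.

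The members whose start regions are shown are the 3 that rose with doxorubicin (Fos, Fosb and Junb), Jun, which fell, and Atf3, the member tied to stress. Each line gives 150 bases that end just before the annotated start, 5′ to 3′ on the gene's strand, from RefSeq on GRCm38.p6. Capitals mark TGACGT, the core of the cAMP response element (read as ACGTCA where it lies on the other strand, as in Atf3), or TGACATCA, a near relative of the AP-1 site. The deposited counts were made on another build, mm9.
Fos (chr12:85473740-85473889, plus strand): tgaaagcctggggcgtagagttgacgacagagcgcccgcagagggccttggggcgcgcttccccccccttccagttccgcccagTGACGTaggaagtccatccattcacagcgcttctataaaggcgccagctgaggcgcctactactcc
Fosb (chr7:19310046-19310195, minus strand): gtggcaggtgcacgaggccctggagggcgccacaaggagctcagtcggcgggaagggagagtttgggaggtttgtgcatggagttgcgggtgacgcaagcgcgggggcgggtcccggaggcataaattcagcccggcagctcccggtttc
Junb (chr8:84978749-84978898, minus strand): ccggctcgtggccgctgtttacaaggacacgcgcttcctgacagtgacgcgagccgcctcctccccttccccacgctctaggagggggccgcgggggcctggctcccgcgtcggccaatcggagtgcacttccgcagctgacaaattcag
Jun (chr4:95052223-95052372, minus strand): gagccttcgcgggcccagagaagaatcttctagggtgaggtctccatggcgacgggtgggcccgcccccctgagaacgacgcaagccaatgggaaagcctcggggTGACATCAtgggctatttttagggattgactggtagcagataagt
Atf3 (chr1:191183334-191183483, minus strand): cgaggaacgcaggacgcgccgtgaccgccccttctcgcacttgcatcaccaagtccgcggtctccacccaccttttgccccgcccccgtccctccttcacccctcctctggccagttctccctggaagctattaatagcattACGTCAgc

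RefSeq start regions were found for 7 of the 8 members, and 250 bases before each start were searched on both strands. TGACGT was found in Fos and Atf3, and 6.47% of the 32851 start regions searched held it. TGACATCA was found in Jun, against 2.93% of all start regions. TATAAA was found in Fos alone among the members, against 12.4% of all. TGANTCA, a pattern that takes in the AP-1 site but allows any base in the middle, was in none of the 7 members' windows. It was in 6.75% of all windows. The same held for TGACGTCA (1.55% of all), the CArG box that binds SRF (1.47% of all) and the p53 half-site (7.13% of all). TGACGTCA contains TGACGT, so those searches overlap. These matches describe letters in a short window, and sites farther from the start were not searched. For some members the RefSeq start is not the start of the GENCODE gene span on GRCm38. The Jund window ended at 70697738, before its span begins at 70698949. The Atf3 window shown lay inside its minus-strand span, which begins at 191218039. The window of Fosl2, which ended at 32136471, lay inside a span that begins at 32135801. The regions before those span starts were not searched.

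Total counts per library ran from 25482805 to 33285171. Values are CPM, counts scaled to the size of each library, given as mean ± SD over n = 2 libraries, or log2 fold changes ± SE. The threshold for a call was an adjusted p of 0.05 in edgeR's quasi-likelihood test over all 12255 genes. Whether letters A and B were grown or collected separately is not in the labels, and the spread behind each p may therefore be technical. All 12 fibroblast markers were detected in every library, from Pdgfrb at 3.32 to 13.1 CPM and Lum at 8.51 to 12.7 CPM to Vim at 1078 to 1403 CPM and Col1a2 at 1675 to 1958 CPM. The summed level of the 13 macrophage and leukocyte markers was 36.9 to 37.8 CPM in WT vehicle, 50.8 to 52.0 CPM in WT doxorubicin, 45.7 to 47.0 CPM in mutant vehicle and 54.2 to 60.2 CPM in mutant doxorubicin libraries. None of these 13 was at 0 throughout, and Aif1 had at most 4 counts. With doxorubicin 6 of the 11 tested were called higher in WT and 1 in mutant cells, and 0 were called lower. Of the 12 fibroblast markers 3 rose and 5 fell in WT cells, and 1 rose and 5 fell in mutant cells. Beside these marker counts, 29.3% of all genes tested were called higher and 28.1% lower in WT cells. In mutant cells the shares were 28.3% and 25.9%. Pdgfra ran from 18.0 to 85.2 CPM over the libraries. The 6 endothelial markers summed to 1.61 to 3.23 CPM with vehicle and 5.68 to 11.3 CPM with doxorubicin, and Tek alone ran from 0.339 to 9.44 CPM. Of the other endothelial markers Tie1 was at 0 counts throughout, Pecam1 had at most 2 counts and Kdr, Cdh5 and Emcn reached at most 1.29, 0.497 and 0.395 CPM, and 1 of the 3 tested was called in each genotype. The 6 epithelial markers stayed at or below 0.847 CPM in sum. The 6 skeletal muscle markers summed to 3.76 to 4.98 CPM with vehicle and 2.49 to 3.22 CPM with doxorubicin. The part of these cells in the changes that follow was not tested. In bulk RNA, fewer cells that express a gene and less of its RNA per cell cannot be told apart.

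Doxorubicin moved the family in opposite directions. Fos, Fosb and Junb rose in both genotypes, Fosl2 and Jun fell in both, and neither Jund nor Atf3 was called in either. In WT cells 3 members were called higher, where 29.3% of all genes tested were, and 2 lower, where 28.1% were. In mutant cells the counts were again 3 and 2, where 28.3% of all genes rose and 25.9% fell. In either direction 57.4% of all genes were called in WT and 54.2% in mutant cells, beside 5 of 7 members in each, and 24.8% rose and 22.9% fell in both genotypes. The same 3 members were higher and the same 2 lower without overlap between libraries in WT cells, as 39.4% and 38.3% of all genes were. In mutant cells Atf3 joined the 2 lower ones, and the shares of all genes were 39.4% and 37.7%. The members' shares lie near this background. The median log2 fold change of the 7 tested members was 0.28 in WT and 0.012 in mutant cells, beside 0.0068 and 0.012 over all genes tested. The median size of change without its sign was 0.51 and 0.55, beside 0.49 and 0.47 over all genes.

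**Figure D1:**
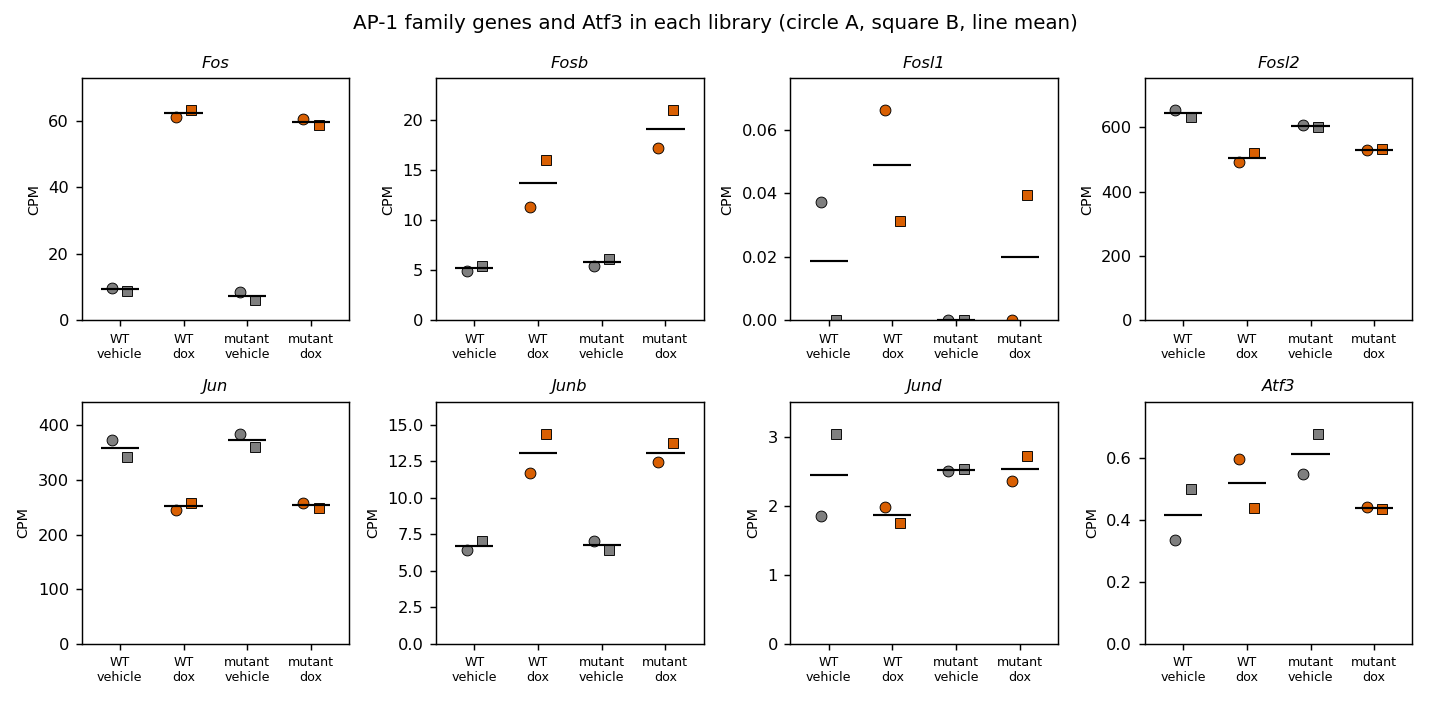
Level of each of the 8 genes in CPM (vertical axes start at 0 and differ between panels) in the 4 groups, with circles for library A, squares for library B and a line at the mean of n = 2. Fos, Fosb and Junb are higher in all treated libraries, Jun and Fosl2 lower, and Atf3 and Fosl1 stay at or under 0.678 CPM in every library.

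Fos, the founding Fos family gene, changed most. It stood at 9.74 and 8.83 CPM in WT vehicle libraries A and B and at 61.4 and 63.4 CPM in WT doxorubicin libraries A and B. In mutant cells it was at 8.41 and 5.93 CPM with vehicle and at 60.5 and 58.9 CPM with doxorubicin. All 4 treated libraries lay far above all 4 vehicle libraries, with no overlap. The log2 fold change was 2.75 ± 0.11 in WT cells (edgeR adjusted p = 1.20e-14) and 3.06 ± 0.12 in mutant cells (edgeR adjusted p = 4.76e-15). That is a 6.74-fold and an 8.33-fold rise, which ranked Fos 405th in WT and 308th in mutant cells from the top of 12255 genes.

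Fosb encodes a Fos protein and a truncated form made by alternative splicing, which gene counts do not separate. Its level was 4.91 and 5.43 CPM in WT vehicle libraries and 11.4 and 16.0 CPM in WT doxorubicin libraries. Mutant libraries held 5.39 and 6.13 CPM with vehicle and 17.2 and 21.0 CPM with doxorubicin. The treated libraries lay above the vehicle libraries in both genotypes, and library B was the higher in each group. The rise was 1.40 ± 0.16 in WT (edgeR adjusted p = 1.09e-07) and 1.73 ± 0.15 in mutant cells (edgeR adjusted p = 3.96e-09) on the log2 scale.

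Junb, a Jun family gene whose protein often opposes Jun, gave nearly equal values in both genotypes. It was at 6.39 and 7.07 CPM in WT vehicle and 11.7 and 14.4 CPM in WT doxorubicin libraries. The mutant values were 7.07 and 6.44 CPM with vehicle and 12.4 and 13.8 CPM with doxorubicin. Treated and vehicle libraries did not overlap, and the log2 fold change was 0.95 ± 0.13 in WT and 0.96 ± 0.13 in mutant cells (edgeR adjusted p = 1.89e-06 and 2.64e-06). On GRCm38 Junb overlaps Prdx2, a peroxiredoxin gene on the other strand. Prdx2 had log2 fold changes of 0.089 ± 0.084 and 0.078 ± 0.086 and was not called. The strand setting of the counting is not given in the sources used here.

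Jun, the JNK target, fell. It was at 373.8 and 341.9 CPM in WT vehicle libraries and 245.6 and 257.8 CPM in WT doxorubicin libraries. In mutant cells it was at 384.9 and 360.8 CPM with vehicle and 258.2 and 249.4 CPM with doxorubicin. The highest treated library stayed below the lowest vehicle library. The log2 fold change was -0.51 ± 0.07 in WT (edgeR adjusted p = 1.84e-06) and -0.55 ± 0.07 in mutant cells (edgeR adjusted p = 6.05e-07), so treated cells held 0.704 and 0.681 times the vehicle level. The span of Jun overlaps that of an antisense gene, Junos, on GRCm38. Without strand, reads from any stretch that both share cannot be told apart.

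Fosl2, the gene of Fra-2, fell by less. WT libraries held 654.4 and 632.8 CPM with vehicle and 492.6 and 519.1 CPM with doxorubicin. Mutant libraries held 608.4 and 602.1 CPM with vehicle and 528.7 and 532.9 CPM with doxorubicin. Treated and vehicle libraries did not overlap in either genotype. The log2 fold change was -0.35 ± 0.06 in WT (edgeR adjusted p = 7.16e-05) and -0.19 ± 0.06 in mutant cells (edgeR adjusted p = 0.0150). The mutant call was lost when any 1 of the 4 mutant libraries was left out, with log2 fold changes of -0.19 without vehicle library A or B, -0.18 without doxorubicin library A and -0.19 without doxorubicin library B (edgeR adjusted p between 0.0614 and 0.0785).

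Jund, the Jun family gene known for steady expression, rested on few counts. It had 50 and 104 counts in WT vehicle libraries A and B, or 1.86 and 3.05 CPM, and 60 and 56 counts in WT doxorubicin libraries, or 1.99 and 1.75 CPM. Mutant libraries held 2.50 and 2.54 CPM with vehicle and 2.36 and 2.73 CPM with doxorubicin. Treated and vehicle libraries overlapped in both genotypes, with the widest spread between the WT vehicle libraries. The treated mutant libraries lay above the treated WT ones, as 23.4% of all genes did. The log2 difference between those treated groups was 0.45 ± 0.24 and was not called (edgeR adjusted p = 0.323). The log2 fold change was -0.42 ± 0.23 in WT (95% interval -0.90 to 0.069) and 0.012 ± 0.23 in mutant cells (-0.47 to 0.49). Without WT vehicle library A the WT value was -0.71 (edgeR adjusted p = 0.0181), and without library B it was 0.0062 (edgeR adjusted p = 0.990). An antisense gene, Gm11175, overlaps Jund on GRCm38.

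Atf3 was barely detected, with 9 to 20 counts per library. Libraries A and B held 9 and 17 counts in WT vehicle, 18 and 14 in WT doxorubicin, 16 and 20 in mutant vehicle, and 11 and 11 in mutant doxorubicin. In CPM these were 0.334 and 0.499, 0.596 and 0.438, 0.549 and 0.678, and 0.440 and 0.435. WT groups overlapped, and the treated mutant libraries lay below the vehicle ones, as 37.7% of all genes did in that comparison. The log2 fold change was 0.28 ± 0.43 in WT cells (95% interval -0.62 to 1.18, edgeR adjusted p = 0.605) and -0.48 ± 0.44 in mutant cells (-1.40 to 0.43, edgeR adjusted p = 0.371).

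Fosl1, the gene of Fra-1, had at most 2 counts in any library. It had 1 and 0 counts in WT vehicle, 2 and 1 in WT doxorubicin, 0 and 0 in mutant vehicle, and 0 and 1 in mutant doxorubicin libraries A and B. A count of 0 allows up to 3 counts, or 0.0880 to 0.120 CPM depending on the library, and this limit covers counting error only. All 8 libraries were at or under it, so no fold change is given. On GRCm38 Fosl1 overlaps Ccdc85b on the other strand, which was at 2.21 ± 0.398 CPM in WT vehicle libraries and fell to 1.16 ± 0.0902 CPM with doxorubicin (log2 fold change -0.94 ± 0.25, edgeR adjusted p = 0.00243). In mutant cells its log2 fold change was -0.15 ± 0.26 (edgeR adjusted p = 0.659).

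**Figure D2:**
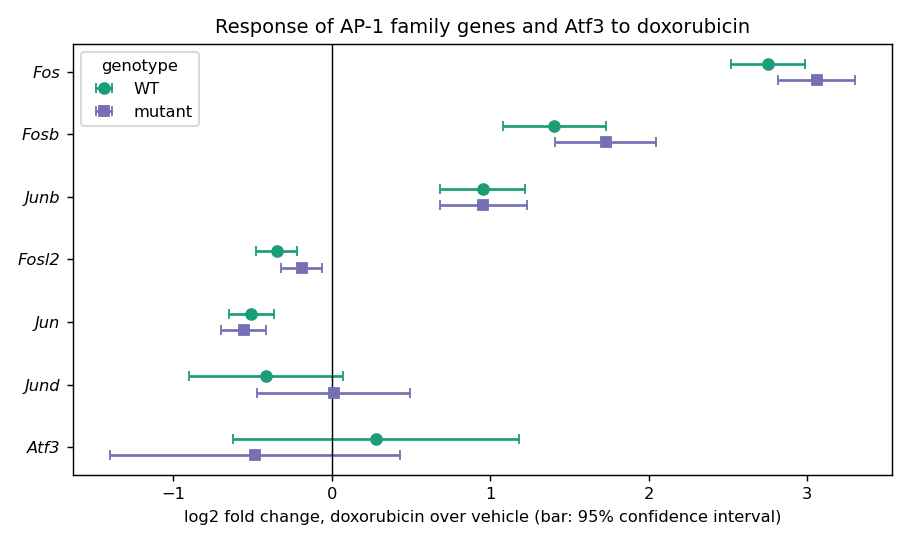
Log2 fold change of doxorubicin over vehicle (horizontal axis) for the 7 tested genes, with circles for WT, squares for mutant and bars for 95% confidence intervals. Fos lies highest at 2.75 and 3.06, Jun lies at -0.51 and -0.55, and the intervals of Jund and Atf3 cross 0 in both genotypes.

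Ratios of counts within a library show how the make-up of the family moved, since gene length and library size cancel when one ratio is followed across libraries. For every 100 counts of Jun there were 2.61 and 2.58 counts of Fos in WT vehicle libraries A and B and 25.0 and 24.6 in WT doxorubicin libraries. In mutant libraries there were 2.18 and 1.64 with vehicle and 23.4 and 23.6 with doxorubicin. Every treated library was thus far above every vehicle library. Set against Fosl2 instead, Fos went from 1.49 and 1.40 to 12.5 and 12.2 counts per 100 in WT cells. The same ratio went from 1.38 and 0.985 to 11.5 and 11.04 in mutant cells. Junb per 100 counts of Jun went from 1.71 and 2.07 to 4.76 and 5.58 in WT and from 1.84 and 1.79 to 4.82 and 5.52 in mutant cells. Fosb per 100 counts of Fosl2 went from 0.750 and 0.858 to 2.31 and 3.09 in WT and from 0.885 and 1.02 to 3.26 and 3.95 in mutant cells. The ratios were not tested on their own.

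**Figure D3:**
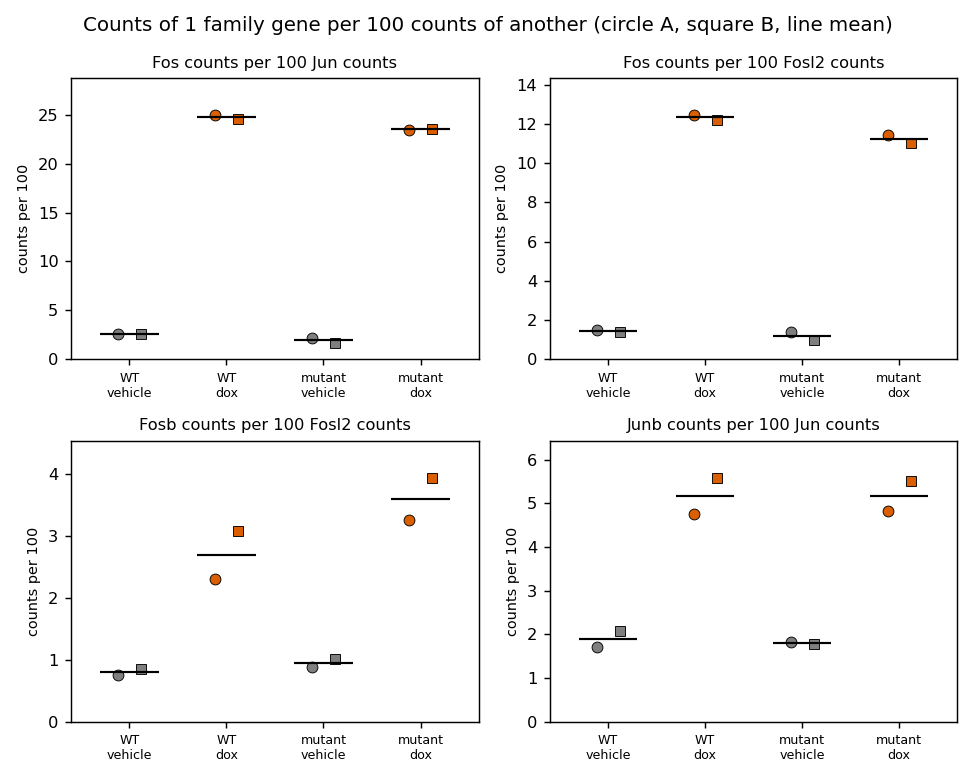
Counts of Fos, Fosb or Junb per 100 counts of Jun or Fosl2 (vertical axes start at 0) in each of the 8 libraries, with circles for library A, squares for library B and lines at group means. Fos per 100 counts of Jun sits between 1.64 and 2.61 in vehicle libraries and between 23.4 and 25.0 in treated ones.

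The design also asks whether the response differs between genotypes. No member was called for the difference between the responses by edgeR, DESeq2 or limma-voom, and at an unadjusted p under 0.05 in edgeR the number was 0 of 7, beside 5.69% of all genes. Over all genes 0.0734% were called, 0.0326% with a higher and 0.0408% with a lower mutant response. The mutant response minus the WT response was 0.31 ± 0.16 for Fos (95% interval -0.033 to 0.65), 0.33 ± 0.22 for Fosb (-0.13 to 0.79) and 0.0048 ± 0.19 for Junb (-0.38 to 0.39). It was -0.047 ± 0.097 for Jun (-0.25 to 0.15) and 0.16 ± 0.09 for Fosl2 (-0.028 to 0.34). Jund had 0.43 ± 0.33 (-0.25 to 1.11) and Atf3 had -0.76 ± 0.62 (-2.05 to 0.52). These intervals show how large a difference between genotypes the libraries could have missed, narrowest for Jun and widest for Atf3.

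Fosb was the one member called between the genotypes. In treated cells it was at 19.1 ± 2.70 CPM in mutant and 13.7 ± 3.30 CPM in WT libraries, a log2 difference of 0.48 ± 0.14 (edgeR adjusted p = 0.0357), where 3.92% of all genes were called higher, 3.82% lower and 7.74% in either direction. The lower mutant library, at 17.2 CPM, lay just above the higher WT library, at 16.0 CPM, and 23.4% of all genes were higher without overlap and 24.2% lower. The call was lost with DESeq2 (adjusted p = 0.0783) and with only the 4 treated libraries in the edgeR fit (adjusted p = 0.0612). It was also lost without WT doxorubicin library A (log2 difference 0.25, edgeR adjusted p = 0.459) or mutant doxorubicin library B (0.33, edgeR adjusted p = 0.336), and without WT doxorubicin library B the difference was 0.76 (edgeR adjusted p = 0.00159). The other 6 members were not called, and their log2 differences ran from -0.23 ± 0.45 for Atf3 to 0.45 ± 0.24 for Jund. Among them Fosl2 and Jund were higher and Fos was lower in mutant cells without overlap between libraries. The genotypes also differed in Xist, at 469.5 to 574.9 CPM in treated mutant and 0.232 to 0.376 CPM in treated WT libraries, and in Ddx3y, at 58.7 to 60.6 against 447.5 to 472.2 CPM. Xist is expressed from the inactive X chromosome of female cells and Ddx3y lies on the Y chromosome, so genotype and the sex make-up of the cultures cannot be told apart in any comparison of mutant with WT here.

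Without doxorubicin no member was called between the genotypes by edgeR, DESeq2 or limma-voom, and 1 of 7, Fos, had an unadjusted p under 0.05 in edgeR, beside 15.4% of all genes at that threshold. After adjustment 5.92% of all genes were called, 2.75% higher and 3.17% lower. Fos was lower in mutant cells, at 7.17 ± 1.75 against 9.28 ± 0.638 CPM, with groups that did not overlap, as for 23.6% of all genes in that direction. Fosl2 was also lower and Atf3 higher without overlap, the latter as 21.5% of all genes were. The log2 difference of Fos was -0.37 ± 0.13 (edgeR adjusted p = 0.120), and it was -0.63 without mutant vehicle library A. Jun and Junb differed by 0.060 ± 0.068 and 0.00028 ± 0.14 between the genotypes, Fosl2 by -0.088 ± 0.063 and Fosb by 0.15 ± 0.17. Xist and Ddx3y were at 212.5 to 254.0 and 74.0 CPM in these mutant libraries and at 0.260 to 0.294 and 511.8 to 580.3 CPM in the WT ones, so here too genotype and sex make-up cannot be told apart.

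Ordered by mean level, the groups of Fos ran from mutant vehicle through WT vehicle and mutant doxorubicin to WT doxorubicin, with no overlap between neighbours. Fosb ran from WT vehicle and mutant vehicle, which overlapped, to WT doxorubicin and then mutant doxorubicin. For Jun and Junb the genotypes overlapped at each treatment. Fosl2 ran from WT doxorubicin through mutant doxorubicin and mutant vehicle to WT vehicle, with all neighbours apart. Neither Fos nor Fosl2 was called between the genotypes at either treatment. In treated cells their log2 differences were -0.064 ± 0.097 and 0.069 ± 0.063 (edgeR adjusted p = 0.788 and 0.612). Of all genes 23.4% were higher and 24.2% lower in mutant cells without overlap with doxorubicin, and 21.5% and 23.6% with vehicle. All neighbouring groups of Jund and of Atf3 overlapped.

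Pearson's r of log2 CPM was taken over all 8 libraries, with both treatments and both genotypes together. It was 0.976 between Fos and Junb, 0.932 between Fos and Fosb, 0.935 between Fosl2 and Jun, and -0.971 between Fos and Jun. Among 6910 other genes averaging 4 CPM or more, the most alike to Fos by the same measure were AI414108 (r = 0.998), Suco and Blcap (0.997 each). For Jun they were Atf1, a CREB family gene (0.998), Ppip5k2 (0.998) and 1190002N15Rik (0.997). Atf1 went from 794.8 to 569.2 CPM in WT and from 833.4 to 573.2 CPM in mutant cells. For Junb they were Gas6 (0.997), Cflar, which encodes the caspase-8 inhibitor c-FLIP (0.996), and Rmnd5a (0.995). For Fosl2 they were Hat1 (0.994), Slbp (0.990) and Ctnnd1 (0.989), and for Fosb Ndufa4 (0.994), Itpripl1 (0.992) and Ccdc55 (0.992). For Jund the best matches were Rpl7 (0.916), Zfp868 (0.877) and Rfc3 (0.875), and for Atf3 Smim11 (0.951), Nxf1 (0.906) and Ankrd13a (0.887). Neither was called with doxorubicin, and both rested on few counts, 50 to 104 per library for Jund and 9 to 20 for Atf3. All matches named are the highest of 6910 over only 8 libraries, so a high r alone does not show that 2 genes are tied. No r was tested. These r values describe levels over treated and vehicle libraries of both genotypes together. They therefore include the shift with doxorubicin and do not show variation at a fixed treatment.

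Of 29 tested AP-1 partners and related bZIP factors, 8 rose and 6 fell in WT cells and 7 rose and 6 fell in mutant cells, with 6 higher and 5 lower in both. Crem, which encodes activators and repressors of the cAMP response, rose from 10.4 ± 0.449 to 26.1 ± 2.89 CPM in WT (log2 fold change 1.33 ± 0.11) and by 1.43 ± 0.11 in mutant cells, and the small Maf gene Mafk rose by 1.35 ± 0.13 and 1.01 ± 0.14. The list median was 0.010 in WT and 0.066 in mutant cells. The counts of this list and of those that follow stand beside the shares of all genes tested. Of all genes 29.3% rose and 28.1% fell in WT cells, and 28.3% rose and 25.9% fell in mutant cells. In both genotypes 24.8% rose and 22.9% fell.

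The kinases upstream of AP-1 were as mixed. Of 30 tested genes of the JNK, p38 and ERK cascades, 8 rose and 6 fell in WT and 7 rose and 5 fell in mutant cells, with medians of -0.061 and -0.065. The genes of the JNK kinases parted: Mapk8, the gene of JNK1, fell from 98.4 ± 12.6 to 47.1 ± 3.76 CPM in WT (log2 fold change -1.06 ± 0.09) and by 0.95 on the log2 scale in mutant cells. Mapk9, the gene of JNK2, rose from 30.9 ± 0.806 to 88.0 ± 12.01 CPM in WT (1.51 ± 0.09) and by 1.53 ± 0.09 in mutant cells. Rps6ka5, which encodes the chromatin kinase MSK1, rose by 1.641 ± 0.088 and 1.495 ± 0.088. Restricted to genes with at least 5 CPM in 2 libraries, 2 of these kinase genes fell in each genotype, and with DESeq2 3 fell in mutant cells.

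Of 9 tested MAP kinase phosphatases, which switch these kinases off, 6 rose and 3 were not called in WT cells, and 6 rose and 1 fell in mutant cells, with medians of 0.68 and 0.43. Dusp6, which acts on ERK, rose from 457.2 ± 1.06 to 734.6 ± 59.9 CPM in WT (0.68 ± 0.07) and by 0.66 ± 0.07 in mutant cells. Dusp1, which acts on JNK and p38, rose by 0.43 ± 0.06 in each. With the filter of 5 CPM, which leaves fewer genes, 2 rose in WT and 3 in mutant cells, and the fall, that of Dusp16 (-0.31), was not called with DESeq2 or without any 1 of the 4 mutant libraries.

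Of 8 SRF and TCF regulators of Fos, 1 rose and 2 fell in each genotype. Srf, the serum response factor, fell from 6.61 ± 0.410 to 3.32 ± 0.315 CPM in WT (-0.996 ± 0.154) and from 6.82 ± 0.0103 to 3.78 ± 0.417 CPM in mutant cells (-0.85 ± 0.16), in the same libraries in which Fos rose. Mkl2, an SRF coactivator gene, rose by 0.42 ± 0.10 and 0.30 ± 0.10. Its mutant value was 0.23 without mutant vehicle library B (edgeR adjusted p = 0.146) and 0.19 without mutant doxorubicin library A (edgeR adjusted p = 0.221), where no gene of the list was called higher. The other fall was that of Crebbp in WT and of Elk3 in mutant cells, named here after their values were seen, and 1 gene fell without WT doxorubicin library A or mutant vehicle library A in the respective genotype.

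Among 16 genes that act on the turnover of Fos and Jun RNA or protein, 4 rose and 9 fell in WT and 4 rose and 8 fell in mutant cells, with medians of -0.48 and -0.29. Fbxw7, the ubiquitin ligase subunit that marks Jun for degradation, rose from 67.3 ± 2.98 to 271.8 ± 15.4 CPM in WT (2.02 ± 0.07) and by 1.99 ± 0.07 in mutant cells. Zfp36l2, which promotes decay of RNAs with AU-rich elements, had -1.19 ± 0.08 and -1.35 ± 0.09. Hnrnpd, which encodes the AU-rich element binding protein AUF1, had -1.13 ± 0.10 and -1.25 ± 0.10.

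Of 25 textbook AP-1 target genes, 11 rose and 7 fell in WT cells and 10 rose and 7 fell in mutant cells, with 8 higher and 7 lower in both. The list medians were 0.22 and 0.091, beside 0.0068 and 0.012 over all genes. Lif, a cytokine of the interleukin-6 family, rose from 1.44 ± 0.0862 to 12.95 ± 0.983 CPM in WT (3.16 ± 0.18) and by 3.04 ± 0.19 in mutant cells. Plau, the urokinase gene, rose from 9.97 ± 1.77 to 52.8 ± 1.14 CPM in WT (2.41 ± 0.12) and by 2.40 ± 0.12 in mutant cells. Ccl2, a monocyte chemokine gene, rose by 2.28 ± 0.10 and 1.86 ± 0.10. Many of these genes answer to other factors too, so the list does not measure AP-1 activity.

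**Figure D4:**
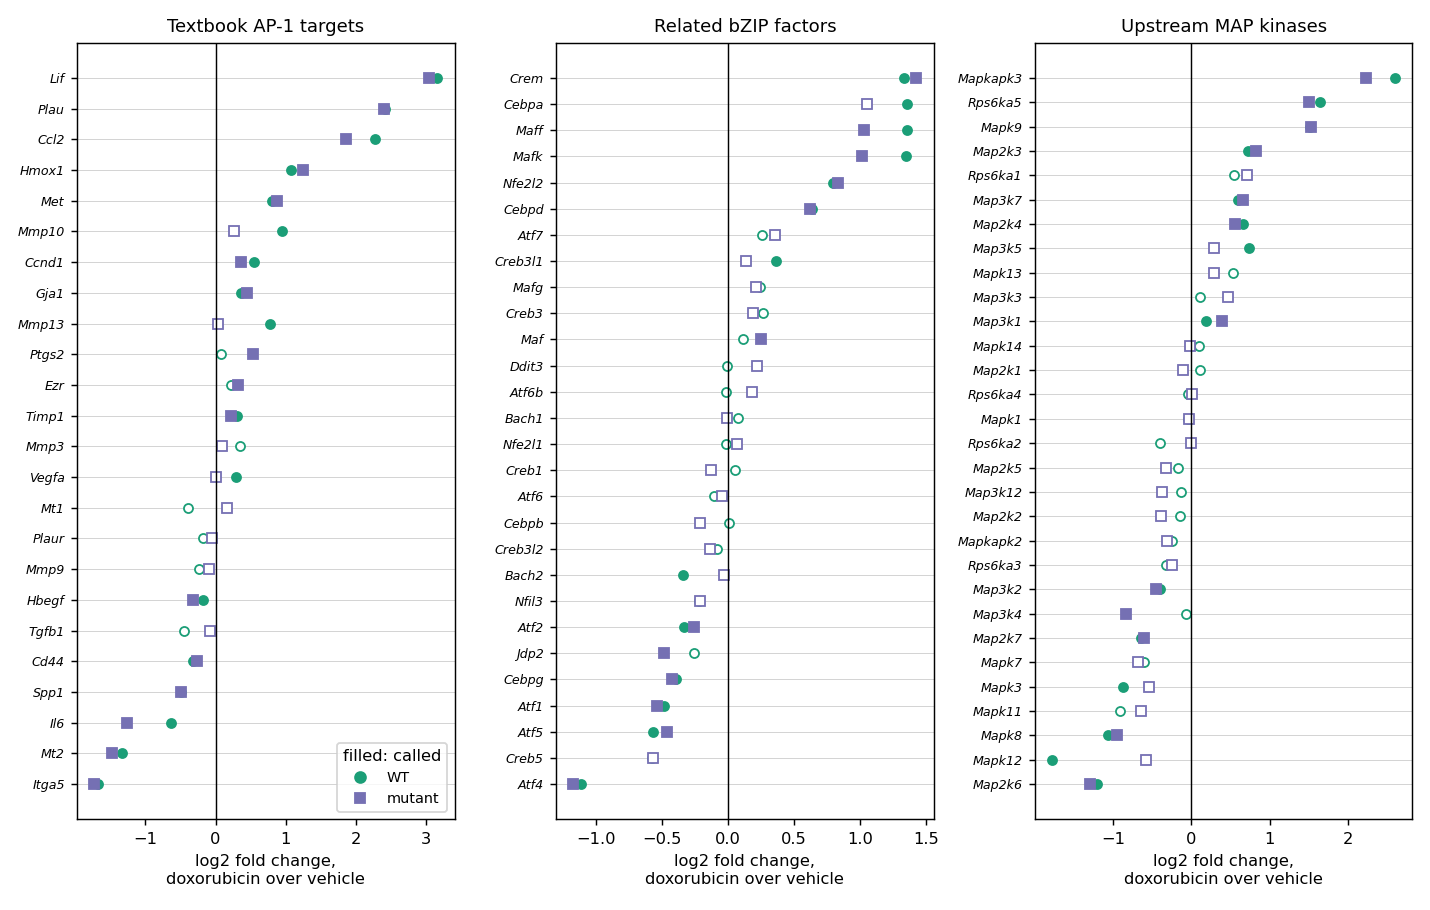
Log2 fold change of doxorubicin over vehicle (horizontal axes) for the genes of 3 lists, sorted by the mean of both genotypes, with circles for WT, squares for mutant and filled symbols for called genes. Each list holds genes on both sides of 0, with Lif at 3.16 among AP-1 targets in WT cells, and Mapk9 and Mapk8 lie on opposite sides among the kinases.

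The last lists give the setting. Some genes stand in several lists, Srf, Dusp1 and Btg2 among them, so the counts of the lists are not independent. Of 24 other immediate early genes, 11 rose and 9 fell in each genotype (5 fell in mutant cells without mutant doxorubicin library A), with Btg2, an antiproliferative p53 target, at 2.92 ± 0.09 and 2.90 ± 0.10, and Myc at -1.88 ± 0.12 and -1.78 ± 0.12. Of 24 p53-activated genes, 23 rose and 1 was not called in each genotype, with medians of 2.08 and 2.03. The death receptor gene Fas rose by 4.48 ± 0.15 and 4.72 ± 0.16, and Ddit4l by 4.46 ± 0.09 and 4.35 ± 0.09. Of 25 genes of the ATF4 stress response, 3 rose and 16 fell in WT and 3 rose and 15 fell in mutant cells. Ddit4, an inhibitor of mTORC1 signalling, rose by 1.63 ± 0.13 and 1.86 ± 0.14, and the mitochondrial folate enzyme gene Mthfd2 had -1.64 ± 0.09 and -1.76 ± 0.09. Atf3, known as a target in both pathways, was not called in these libraries.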

How the data were processed

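RNA of 8 libraries was analysed from 1 deposited table. Its values are raw counts per gene name, made by the authors with Bowtie2 and HTSeq on mouse build mm9, per the submitters' processing notes; the annotation, strand setting and handling of reads with several matches are not given in the sources used here. A capture kit for exonic RNA and sequencing of 3' ends both appear in the labels, so levels per length could not be had and no test compares levels between genes.

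The tools were edgeR 4.0.16, limma 3.58.1 and DESeq2 1.42.0, run in R 4.3.3. Low genes were removed with filterByExpr (count of 10, total of 15), TMM set the library scaling, and edgeR's quasi-likelihood fit used the 8 libraries together, with a term for each of the 4 groups and 4 degrees of freedom left. Tests were two-sided, with Benjamini-Hochberg adjustment across the 12255 genes. The SE is the log2 fold change divided by the square root of F. CPM use TMM-scaled library sizes. Libraries A and B of a group differed beyond counting noise: their chi-square divided by its degrees of freedom was 6.16, 18.2, 5.57 and 5.43 in WT vehicle, WT doxorubicin, mutant vehicle and mutant doxorubicin.

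All members were named. Other genes named were the 3 with the highest Pearson r of log2 CPM (prior count 2) to each member, and up to 3 per list (2 for the last 3 lists) with the largest average response among genes called in both genotypes at a mean of at least 4 CPM. Genes that overlap a member, sex-linked genes, cell type markers and Dusp16, Crebbp and Elk3 were named outside this rule, the last 3 after their values were seen. Some genes of the lists are counted but not reported by name or plotted here. The members and lists were chosen with earlier results of these data known. The pipeline was run on simulated data with changed genes in the WT doxorubicin group only, far fewer than were called here. That run does not measure error rates in these data. Gene overlaps came from GENCODE M21 and start regions from RefSeq, both on GRCm38, whose coordinates were not mixed with mm9. Alternatives were edgeR with DESeq2 or upper-quartile factors, DESeq2, limma-voom, no filter, 5 CPM in 2 libraries, an adjusted p of 0.10, the library letter as a replicate block, the 2 groups compared alone, and each library left out.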

Additional observations from a re-analysis of the deposited data

How the results depend on the processing

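The rises of Fos, Fosb and Junb and the falls of Jun in both genotypes, and the fall of Fosl2 in WT cells, kept their direction and call under every alternative run, each library left out included. Members called lower in the mutant response numbered 1 to 2 when 1 library was left out, with Fosl2 as the one lost. Members called between the genotypes with doxorubicin were 0 with DESeq2 and 0 with the 2 groups compared alone, and 0 to 1 with 1 library left out. Without doxorubicin the members called lower were 0 to 1 with 1 library left out. Genes called for the difference between responses, 9 in all, numbered 18 with DESeq2, 4 with limma-voom, 48 with no filter, 5 with at least 5 CPM in 2 libraries, 18 at an adjusted p under 0.10 and 0 to 51 with 1 library left out, 0 without WT vehicle library B or mutant vehicle library A and 51 without WT doxorubicin library B. The cause was not tested. Genes called between the genotypes ranged from 388 (without WT vehicle library B) to 848 without doxorubicin and from 530 (without WT doxorubicin library A) to 1214 with it when 1 library was left out.

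Some values changed sign, and none was called under the setting that turned it. Jund in the mutant response was -0.043 with upper-quartile factors and -0.0024 with no filter. Junb between the genotypes without doxorubicin was -0.0017 with limma-voom, -5.8e-05 with the 5 CPM filter and -0.00034 with 2 groups alone. With doxorubicin Junb was -0.0019 with no filter and -0.0071 with the 5 CPM filter, and Jun was -0.00031 with that filter. The Junb difference between responses was -0.014 with no filter and -0.0070 with the 5 CPM filter. With 1 library left out, Jund ranged from -0.71 (called, without WT vehicle library A) to 0.0062 in the WT response, from -0.095 to 0.11 in the mutant response and from -0.28 to 0.44 between the genotypes without doxorubicin. In the same fits Junb ranged from -0.071 to 0.081 between the genotypes without and from -0.14 to 0.17 with doxorubicin, and from -0.15 to 0.16 for the difference between responses. Jun ranged from -0.0014 to 0.12 without and from -0.024 to 0.052 with doxorubicin, and from -0.11 to 0.013 for the difference.

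Over genes, deviations of same-lettered libraries correlated between -0.025 and 0.031. Whether libraries of the same letter share a culture or day is not in the labels, and these correlations cannot settle it. With the letter as a replicate block the difference between responses called 14 genes, and no call of a member changed. In that fit the log2 difference of Fosb between the genotypes with doxorubicin was 0.49 ± 0.11 (edgeR adjusted p = 0.00688). Atf3, Fosl1 and Jund have too few counts for small changes to be seen.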
